A study of Arabidopsis thaliana with 15 samples.

Results

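After 6 h of UV-B, uvr8-6 seedlings were compared with wild-type seedlings, so that all plants had received the same light and the groups differed in their genotype label. The comparison uses 6 of the 15 libraries of the series, 3 of uvr8-6 and 3 of wild type, chosen by genotype and light label. Of 33602 genes in the count table, 20833 had enough reads to be tested. The tested seedlings were 4 days old, carried the uvr8-6 allele of UVR8 in the Col-0 background, and were set against Col-0 wild type of the same age. Plants of both genotypes had been germinated on sucrose-containing agar under continuous weak white light, to which narrowband UV-B tubes were added behind a filter for the last 6 h. Each sample pooled 30 whole seedlings, and replicates came from separate plates. The other 9 libraries were uvr8-6, wild type and pif4-101 pif5-1 without UV-B.

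UVR8 is a plant UV-B photoreceptor. It is a homodimer that falls apart into monomers on absorbing UV-B, and the monomer binds the ubiquitin ligase COP1, which lets the bZIP transcription factor HY5 accumulate. HY5 and its relative HYH switch on genes for flavonoid sunscreens, photoprotection and DNA repair, RUP1 and RUP2 return UVR8 to the dimer, and in seedlings the same pathway restrains PIF and auxin driven elongation.

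The 6 UV-B libraries held 23.2 to 26.6 M counted reads, within 19.3 to 30.4 M over the series. Levels below are CPM, read counts scaled to a common library size with trimmed mean of M-values (TMM) factors, given for replicates 1, 2 and 3 in that order. They are not divided by gene length, so they compare libraries and not genes. In a principal component analysis of the 6 libraries, the first component held 60.4% of the variance and separated the genotypes, with uvr8-6 at 39.2 to 46.1 and wild type at -49.5 to -36. The second held 20.2% and put uvr8-6 replicate 2 at -42.5, against 21 and 22 for the other uvr8-6 libraries. Libraries also differed within groups in FRO5, a ferric reductase oxidase gene, which stood at 28.4, 0.211 and 30.0 CPM in uvr8-6 and at 20.8, 0.201 and 0.0872 CPM in wild type. The 26 genes of chlorophyll, antenna and carotenoid synthesis summed to 11650 to 19170 CPM in uvr8-6 and 19560 to 28280 CPM in wild type, the 9 tested root markers to 428 to 493 CPM and 348 to 446 CPM, and the 7 tested seed storage genes to 20.1 to 63.7 CPM and 5.19 to 19.3 CPM. In RNA of whole seedlings, fewer cells of a type and less RNA per cell cannot be told apart.

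Between uvr8-6 and wild type under UV-B, 4903 genes, 23.5% of those tested, had an adjusted p under 0.05 in the quasi-likelihood test of edgeR, with p-values adjusted over all tested genes by the method of Benjamini and Hochberg. Such genes are referred to as called. Of these, 2991 (14.4% of tested genes) were lower in uvr8-6 and 1912 (9.18%) were higher, so 61% of the calls were lower. With upper quartile scaling in place of TMM, which moved the median of all genes by 0.1 on the log2 scale, 42.1% of the calls were lower. At least 2-fold, 791 genes (3.8%) were lower and 539 (2.59%) higher, at least 8-fold 56 were lower and 26 higher, and at least 64-fold 10 were lower and 1 higher. Among the 10 are genes whose fitted fold rests on few reads in uvr8-6, such as MRD1 and AT4G34550. Another of them, AT3G01345, was split within wild type. The libraries of both groups did not overlap for 4825 of the 4903 called genes, and they did not overlap for 9009 of all tested genes (43.2%). The plot of fold change against level shows these differences across the whole range of abundance.

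**Figure D1:**
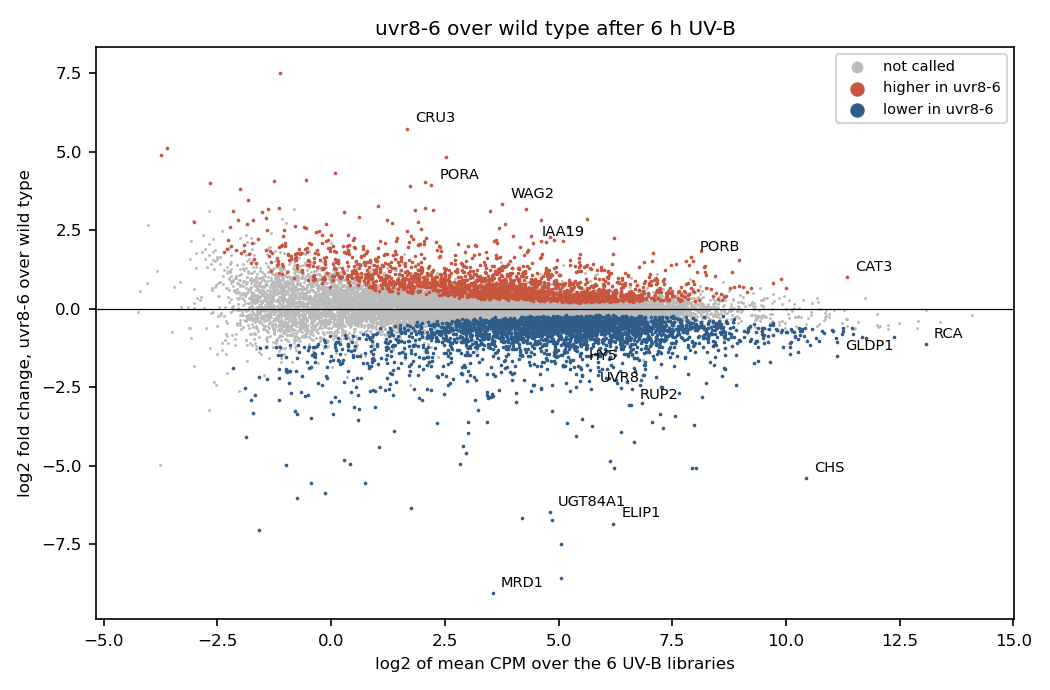
Each point is 1 of 20833 tested genes. The x axis gives the log2 of the mean CPM over the 6 UV-B libraries and the y axis the fitted log2 fold change of uvr8-6 over wild type. Blue points are called lower and red points called higher in uvr8-6, grey points are not called. CHS and ELIP1 lie far below 0 at high levels, and RCA, GLDP1 and CAT3 are among the abundant genes with at least a 2-fold difference.

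The targeted gene was checked first. UVR8 (AT5G63860) had 15.6, 15.8 and 14.9 CPM in uvr8-6, against 81.5, 94.2 and 94.3 CPM in wild type, a log2 fold change of -2.54 ± 0.13 (SE of the fit, here and below, n = 3 libraries a group) with an adjusted p of 7.6e-09. In white light, where other libraries were compared, UVR8 had 18.3, 13.8 and 19.0 CPM in uvr8-6 and 109, 82.9 and 105 CPM in wild type. All 6 libraries of uvr8-6 lay under all 6 of wild type, and some reads of the gene were still counted in each. Only 3 genes were called between the genotypes in white light, 0.0144% of those tested (415 at an unadjusted p under 0.05, and 6 called by DESeq2 and 4 by limma-voom), and all 3 were also called under UV-B, where they are 3 of 4903. Besides UVR8 they were MRD1 (AT1G53480), with 0, 0.0703 and 0.0403 CPM in uvr8-6, against 19.9, 25.9 and 24.5 CPM in wild type under UV-B, and its neighbour HEI10 (AT1G53490), with 1.18, 1.44 and 1.29 CPM in uvr8-6, against 8.34, 6.84 and 8.41 CPM in wild type. HEI10, whose product acts in meiotic crossover formation, had a log2 fold change of -2.58 ± 0.18, and no fold is given for MRD1, which had at most 2 reads in any of these uvr8-6 libraries. UVR8 lies on chromosome 5 and this pair on chromosome 1. The genotype difference under UV-B differed from that in white light for 1375 genes (6.6%) by the interaction test of the same fit, and UVR8, MRD1 and HEI10 were not among them (adjusted p = 0.996, 0.265 and 0.372).

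**Figure D2:**
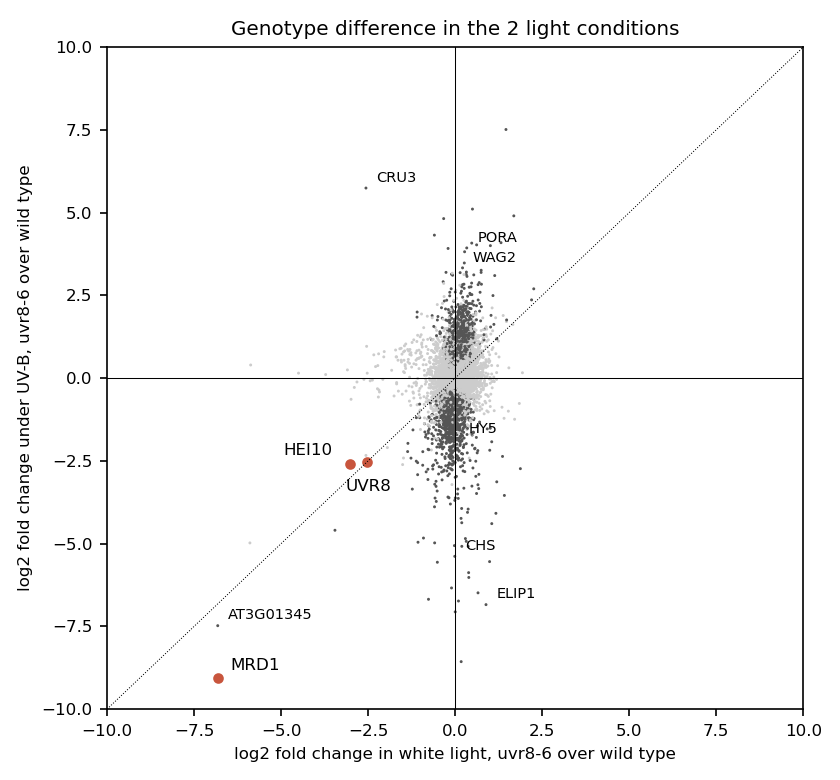
Each point is 1 tested gene, with the log2 fold change of uvr8-6 over wild type in white light on the x axis and under UV-B on the y axis. Dark points are called under UV-B, the 3 red points are called in both lights, and the dotted line marks equal differences. Most called genes lie near 0 on the x axis, while UVR8 and HEI10 lie near the dotted line. MRD1 lies at the lower left, where its fitted values rest on few reads in uvr8-6.

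Genes of the receptor's own signalling chain were lower in uvr8-6. Of 15 core genes, 12 were called lower and 0 higher, against 14.4% lower and 9.18% higher over all tested genes. The 12 include UVR8 itself, the mutated gene, which was also called in white light. The median log2 fold change of the 15 was -0.73, against 0 over all tested genes. RUP2 (AT5G23730), a repressor that returns UVR8 to the dimer, had 22.9, 18.8 and 19.6 CPM in uvr8-6, against 175, 178 and 163 CPM in wild type. Its log2 fold change was -3.08 ± 0.20 (adjusted p = 1.24e-07), and that of RUP1, its partner, was -2.29 ± 0.11. HY5 (AT5G11260), the bZIP factor at the centre of the response, had 21.6, 16.5 and 19.7 CPM in uvr8-6, against 73.6, 67.0 and 67.2 CPM in wild type, and the libraries of the genotypes did not overlap. This was a log2 fold change of -1.85 ± 0.14 (adjusted p = 5.78e-07), and HYH, its close relative, had -1.43 ± 0.23. MYB13, a transcription factor gene of the UV-B response, had 3.32, 2.04 and 3.18 CPM in uvr8-6, against 23.1, 15.8 and 20.7 CPM in wild type (log2 fold change -2.81 ± 0.29).

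The ubiquitin ligase partners differed by less. COP1 had 44.5, 45.6 and 50.4 CPM in uvr8-6, against 78.8, 74.1 and 77.3 CPM in wild type, a log2 fold change of -0.71 ± 0.08 (adjusted p = 1.18e-05). Among the 4 SPA genes, whose products form complexes with COP1, SPA4 had the log2 fold change farthest from 0, -1.25 ± 0.09, followed by SPA3 with -0.73 ± 0.11, SPA1 with -0.55 ± 0.09 and SPA2 with -0.41 ± 0.08. DET1, a repressor of photomorphogenesis, had -0.48 ± 0.08. In white light the same 6 genes had no call, and COP1 stood at 38.5, 44.4 and 39.8 CPM in uvr8-6 and 41.0, 43.8 and 44.0 CPM in wild type. The 3 members not called under UV-B were FAR1 and FHY3, related transcription factor genes of light signalling, with -0.05 ± 0.09 and 0.00 ± 0.07, and WRKY36, a repressor of HY5, with 0.13 ± 0.17. The interaction test called 10 of the 15, all lower in uvr8-6 under UV-B, against 6.6% of all tested genes.

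Acclimation genes were lower in uvr8-6. All 10 tested members of the list of UV-B acclimation markers were called lower, against 14.4% of all tested genes. Their median log2 fold change was -1.74, and 1 more member, ARI12, had too few reads to test. ELIP1 (AT3G22840), an early light-induced protein that binds pigments in stressed thylakoids, had 0.968, 1.09 and 1.73 CPM in uvr8-6, against 171, 127 and 138 CPM in wild type, a log2 fold change of -6.84 ± 0.30 (adjusted p = 2.08e-09). Its relative ELIP2 had 5.09, 4.57 and 4.55 CPM in uvr8-6, against 160.5, 106 and 143 CPM in wild type (-4.85 ± 0.35). GPX7 (AT4G31870), a chloroplast glutathione peroxidase gene, had 0.252, 0.422 and 0.363 CPM in uvr8-6, against 35.2, 31.8 and 42.3 CPM in wild type (-6.68 ± 0.34, adjusted p = 9.11e-09). The lowest wild-type library of ELIP1 stood 73.5-fold above the highest uvr8-6 library.

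Genes of DNA photorepair and of the plastid were lower by smaller factors. PHR1 (AT1G12370), the photolyase that repairs cyclobutane pyrimidine dimers and is also named UVR2, had 6.56, 7.03 and 5.56 CPM in uvr8-6, against 16.9, 18.3 and 21.7 CPM in wild type (log2 fold change -1.57 ± 0.21, adjusted p = 9.51e-05). UVR3, the photolyase for pyrimidine-pyrimidone photoproducts, had -1.17 ± 0.13, and CRY3, a cryptochrome of the DASH type, had -1.91 ± 0.23. SIGE (AT5G24120), a plastid sigma factor also named SIG5, had 34.3, 40.3 and 28.7 CPM in uvr8-6, against 168, 185 and 204 CPM in wild type (-2.43 ± 0.16). For all 4 the highest uvr8-6 library lay under the lowest wild-type library, while over all tested genes 43.2% had no overlap. In white light none of the 10 markers was called, and the interaction test called 9 of them, against 6.6% of all tested genes.

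CHS, ELIP1, HY5 and RUP2 carry the largest or best known of these differences, so the 250 bases before their annotated starts are shown, from RefSeq's TAIR10.1 annotation, 5′ to 3′ on the gene's strand. Capitals mark the letters ACGT, the core of elements bound by bZIP factors such as HY5, and the whole of CACGTG (the G-box) where it occurs. The windows are chr5:4488226-4488475 (plus strand) for CHS, chr3:8085670-8085919 (minus strand) for ELIP1, chr5:3595074-3595323 (minus strand) for HY5 and chr5:8004847-8005096 (plus strand) for RUP2.
CHS: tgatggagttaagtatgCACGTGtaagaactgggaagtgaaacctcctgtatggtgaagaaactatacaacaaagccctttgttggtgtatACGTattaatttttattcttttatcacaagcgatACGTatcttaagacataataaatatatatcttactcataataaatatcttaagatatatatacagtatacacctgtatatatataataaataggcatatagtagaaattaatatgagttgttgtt
ELIP1: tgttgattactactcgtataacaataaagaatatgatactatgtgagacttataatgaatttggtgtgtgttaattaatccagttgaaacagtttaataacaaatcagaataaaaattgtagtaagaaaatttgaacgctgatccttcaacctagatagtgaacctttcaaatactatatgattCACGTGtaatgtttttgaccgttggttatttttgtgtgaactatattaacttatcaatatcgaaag
HY5: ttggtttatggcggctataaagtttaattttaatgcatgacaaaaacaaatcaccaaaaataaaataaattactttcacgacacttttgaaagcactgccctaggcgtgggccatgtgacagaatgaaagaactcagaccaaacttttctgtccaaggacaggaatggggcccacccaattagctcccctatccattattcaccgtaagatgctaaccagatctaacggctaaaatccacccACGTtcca
RUP2: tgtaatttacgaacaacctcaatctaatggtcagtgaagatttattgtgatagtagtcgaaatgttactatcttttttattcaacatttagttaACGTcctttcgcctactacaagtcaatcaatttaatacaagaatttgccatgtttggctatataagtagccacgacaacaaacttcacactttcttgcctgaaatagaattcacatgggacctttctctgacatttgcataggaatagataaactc
CHS has 1 CACGTG, 233 bases before the start, and 2 more ACGT. ELIP1 has 1 CACGTG 66 bases before the start, while HY5 and RUP2 have 1 ACGT each and no CACGTG. Over all tested genes with a promoter window, CACGTG (both strands read alike, and each holds an ACGT) stood in 7.35% of 20730 windows. It stood in 14.3% of the 56 windows of genes at least 8-fold lower in uvr8-6, which is 8 genes, in 10.1% between 4-fold and 8-fold lower, in 8.28% between 2-fold and 4-fold lower, and in 8.35% at least 2-fold higher. ACGT stood in 54.1% of windows of genes at least 2-fold lower, in 51% of those at least 2-fold higher and in 44.7% of all. ACCTACC on either strand, a letter string of MYB-bound promoters searched after these values were seen, stood in 7.14% of windows at least 8-fold lower, which is 4 genes, and in 1.2% of all. These shares are descriptions of the windows, and a match is not evidence of binding.

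**Figure D3:**
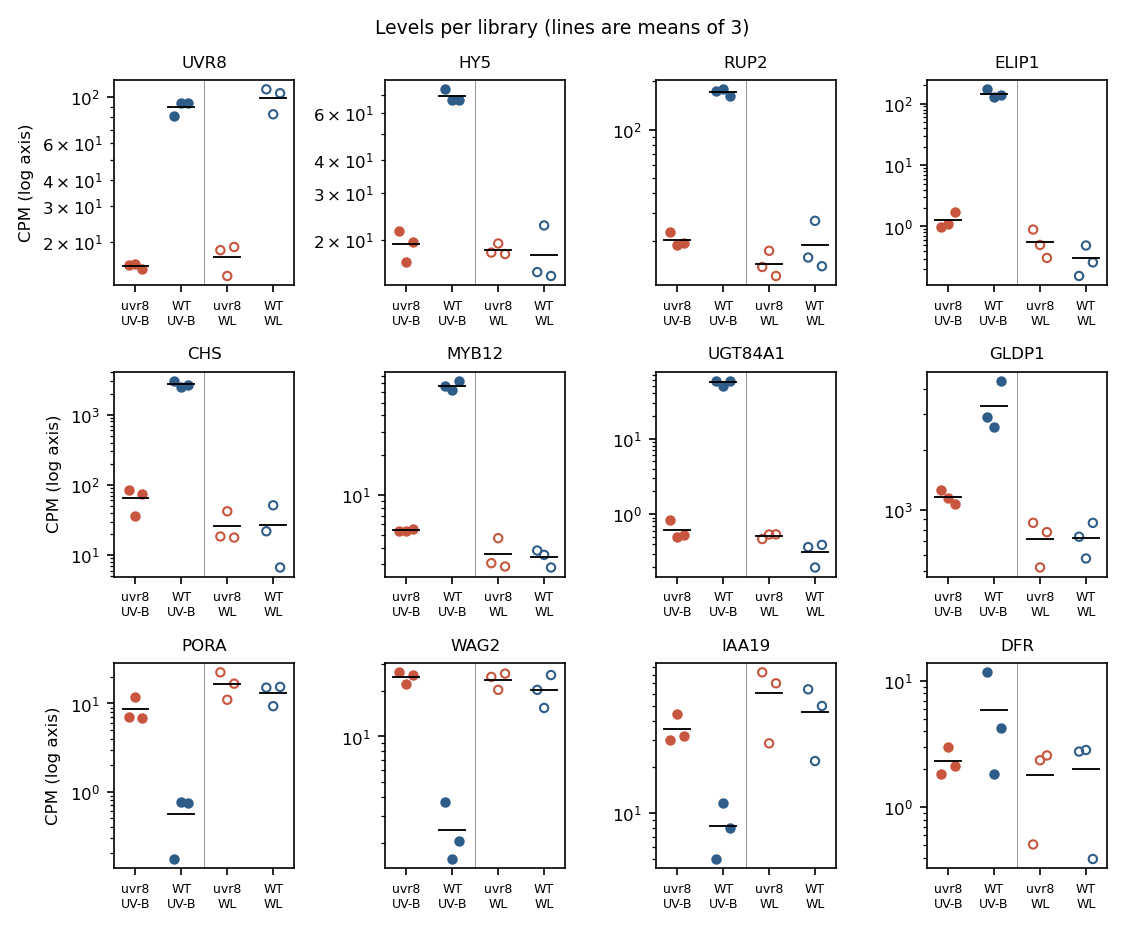
Points give the CPM of each library on a log axis for 12 genes. Filled points are UV-B libraries and open points white-light libraries, red is uvr8-6 and blue is wild type, and lines are means of 3. For the 7 genes from UVR8 to UGT84A1 the UV-B libraries of uvr8-6 all lie under those of wild type, while PORA, WAG2 and IAA19 show uvr8-6 above wild type under UV-B. DFR overlaps between the genotypes.

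Flavonol synthesis was the list lowest in uvr8-6. All 14 tested members were called lower, against 14.4% of all tested genes, with a median log2 fold change of -3.63. None was called in white light, where the median was 0.04. The interaction test called all 14, against 6.6% of all tested genes. CHS (AT5G13930, chalcone synthase, also TT4), which makes the first flavonoid, had 85.3, 35.6 and 74.9 CPM in uvr8-6, against 3034, 2477 and 2672 CPM in wild type, a log2 fold change of -5.39 ± 0.63 (adjusted p = 2.82e-05). In white light CHS had 18.4, 42.0 and 17.7 CPM in uvr8-6 and 21.8, 51.1 and 6.65 CPM in wild type, which overlap. CHS was among the 8 most abundant genes that differed at least 2-fold. FLS1 (flavonol synthase) had 18.3, 6.11 and 20.2 CPM in uvr8-6, against 595, 437 and 476 CPM in wild type (-5.08 ± 0.59), and F3H (flavanone 3-hydroxylase) had 14.8, 12.5 and 15.7 CPM in uvr8-6, against 500.4, 447 and 489 CPM in wild type (-5.06 ± 0.32, adjusted p = 8.09e-08).

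The enzymes between and after these steps followed the same direction. CHI (chalcone isomerase, TT5) had a log2 fold change of -3.81 ± 0.16, the non-catalytic helper CHIL -3.62 ± 0.26, and F3'H (the 3'-hydroxylase TT7) -4.06 ± 0.17. The coenzyme A ligase 4CL3 had -3.50 ± 0.40. Genes that attach sugars to flavonols were called lower as well. UGT78D2, a flavonoid 3-O-glucosyltransferase, had 30.5, 24.7 and 30.3 CPM in uvr8-6, against 186, 151 and 168 CPM in wild type (-2.56 ± 0.14), the rhamnosyltransferase UGT78D1 had -2.28 ± 0.24, AT1G06000, annotated as a UDP-glycosyltransferase, had -3.00 ± 0.18, and RHM1, which makes UDP-rhamnose, had -2.16 ± 0.12. UGT78D3 had too few reads to test, with 1 read in the uvr8-6 libraries and 56 in the wild-type libraries.

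MYB factors that switch on flavonol genes were lower as well. MYB12 (AT2G47460) had 5.34, 5.34 and 5.52 CPM in uvr8-6, against 66.9, 61.8 and 73.0 CPM in wild type (log2 fold change -3.64 ± 0.18, adjusted p = 7.41e-09). MYB111 had 2.78, 1.26 and 2.34 CPM in uvr8-6, against 15.1, 5.87 and 7.02 CPM in wild type (-2.14 ± 0.43). MYB11 was called too, with 0, 0.0703 and 0 CPM in uvr8-6, against 2.12, 2.25 and 1.05 CPM in wild type, and no fold is given because its uvr8-6 libraries held 2 reads in all. For these 3 genes every uvr8-6 library under UV-B lay under every wild-type library, while over all tested genes 43.2% had no overlap.

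Few genes of the anthocyanin branch were called. Of 12 tested members of the anthocyanin list 3 were called lower and 0 higher, 25% against the background of 23.5%. GSTF12 (AT5G17220, TT19), a glutathione transferase needed for anthocyanin transport, had 1.30, 1.72 and 1.81 CPM in uvr8-6, against 26.4, 16.4 and 16.9 CPM in wild type (-3.62 ± 0.47, adjusted p = 7.56e-05). MYBL2, a repressor of anthocyanin synthesis, had -1.26 ± 0.33 (adjusted p up to 0.0589 when 1 library was left out), and TTG1, a WD40 protein of the MYB-bHLH-WD40 complex, had -0.62 ± 0.09. DFR (dihydroflavonol reductase) had 1.85, 3.02 and 2.14 CPM in uvr8-6, against 11.7, 1.85 and 4.27 CPM in wild type, and LDOX, the next enzyme, had 2.40, 3.3 and 2.1 CPM in uvr8-6, against 9.24, 2.37 and 5.14 CPM in wild type. For both, wild-type replicate 1 was high, wild-type replicate 2 lay at or inside the edges of the uvr8-6 range, and no call was made (adjusted p = 0.191 and 0.231). Their log2 fold changes were -1.34 ± 0.70 and -1.10 ± 0.63.

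**Figure D4:**
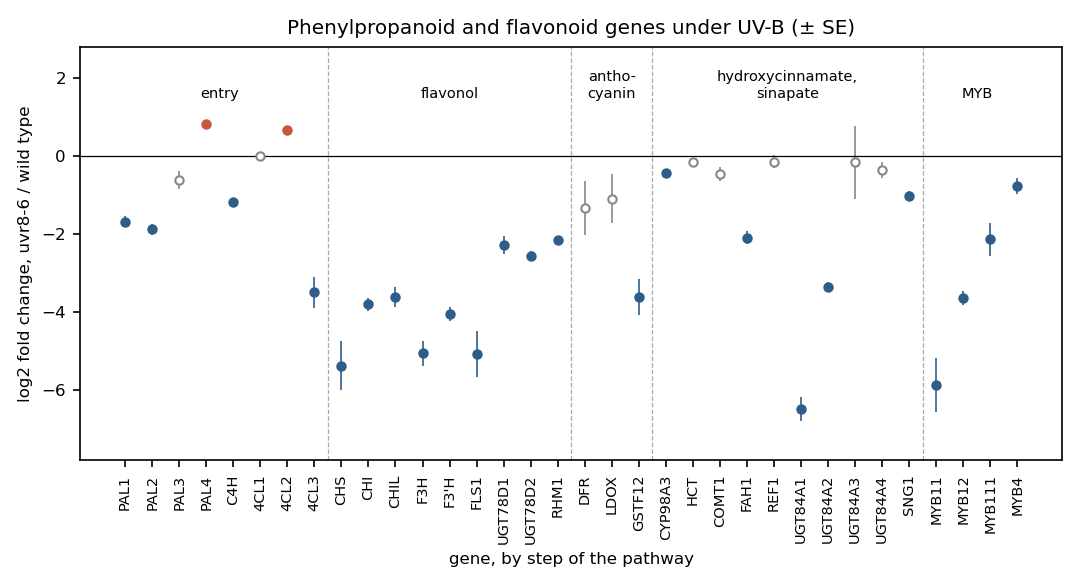
The y axis gives the log2 fold change of uvr8-6 over wild type under UV-B with its SE for 34 genes ordered by step on the x axis. Filled blue is called lower, filled red called higher and open grey not called. Flavonol enzymes lie between -5.39 and -2.16, UGT84A1 and UGT84A2 lie at -6.49 and -3.35 within the sinapate branch, and DFR and LDOX are open. The fitted value of MYB11 rests on 2 reads in uvr8-6 and is no measure of its fold.

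Entry enzymes and the sinapate branch were lower in part. Of 21 genes of phenylpropanoid and sinapate synthesis, 9 were lower and 2 higher (52.4% called, against 23.5% of all tested genes). PAL1 and PAL2 (phenylalanine ammonia-lyases) had log2 fold changes of -1.68 ± 0.14 and -1.88 ± 0.14, and C4H, the next enzyme, had -1.18 ± 0.12. PAL1 had 410.3, 347 and 382 CPM in uvr8-6, against 1375, 1038 and 1245 CPM in wild type. By contrast PAL4 was higher, with 97.2, 111 and 95.7 CPM in uvr8-6, against 56.9, 59.6 and 53.8 CPM in wild type (0.84 ± 0.10, adjusted p = 3.17e-05), and so was the ligase 4CL2 (0.67 ± 0.12), while 4CL1 had 0.00 ± 0.10 and was not called. Genes of one enzyme family thus stood on both sides.

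Sinapate esters are UV-absorbing compounds of Arabidopsis leaves. UGT84A1 (AT4G15480) and UGT84A2 (AT3G21560), glucosyltransferases that act on hydroxycinnamates including sinapate, were the members with the largest differences. UGT84A1 had 0.842, 0.492 and 0.524 CPM in uvr8-6, against 57.6, 50.5 and 58.3 CPM in wild type, a log2 fold change of -6.49 ± 0.31, and UGT84A2 had 29.9, 23.4 and 27.5 CPM in uvr8-6, against 312, 255 and 259 CPM in wild type, -3.35 ± 0.13 (adjusted p = 1.31e-09). FAH1, ferulate 5-hydroxylase, had -2.10 ± 0.17, and SNG1, which makes sinapoylmalate, had -1.02 ± 0.12. Their relatives UGT84A3 and UGT84A4 had -0.16 ± 0.93 and -0.35 ± 0.20 and were not called. Reads shared among near-identical family members may be split by the counting.

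Other genes with the largest differences had no gene symbol in RefSeq. AT2G22590, annotated as a UDP-glycosyltransferase, had 0.210, 0.176 and 0.121 CPM in uvr8-6, against 64.0, 53.2 and 80.4 CPM in wild type (-8.57 ± 0.36, adjusted p = 2.08e-09). AT5G62210, an embryo-specific protein 3 family gene, had 0.505, 0.527 and 0.564 CPM in uvr8-6, against 62.2, 44.2 and 65.4 CPM in wild type (-6.74 ± 0.30). AT4G34550, an F-box protein gene, had 0.0421, 0.105 and 0.0806 CPM in uvr8-6, against 4.62, 6.88 and 8.59 CPM in wild type. Its fitted value of -6.34 ± 0.48 rests on few reads in uvr8-6, and the interaction test did not call it (adjusted p = 0.168). AT2G23910, a Rossmann-fold protein gene, had 5.05, 2.57 and 5.28 CPM in uvr8-6, against 175, 129 and 131 CPM in wild type (-5.09 ± 0.26). The lowest wild-type library of AT2G22590 stood 253-fold above the highest uvr8-6 library. For these 4 genes the wild-type and uvr8-6 libraries did not overlap, which the rule that named them required. AT3G01345, of unknown function, is ranked among them by fold but was split within wild type. It had 0.547, 0.211 and 0.363 CPM in uvr8-6, against 1.34, 96.7 and 100.1 CPM in wild type, and in white light 0.552, 0.644 and 0.500 CPM in uvr8-6 and 99.2, 0.638 and 94.0 CPM in wild type, so 1 wild-type library in each light was near the uvr8-6 level. Limma-voom did not call it (adjusted p = 0.42).

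B-box factors, zinc finger regulators of which several work with HY5, were mostly lower. Of 12 tested members 10 were lower, with a median of -1.11 (91.7% called in either direction, against 23.5% of all tested genes). The interaction test called 5 of the 12, against 6.6% of all tested genes. BBX21 was higher (0.43 ± 0.14), a call that ended without wild-type replicate 1 or 3 or uvr8-6 replicate 2 or 3. BBX32 had 2.82, 3.16 and 2.06 CPM in uvr8-6, against 20.1, 17.9 and 19.6 CPM in wild type (-2.84 ± 0.37). LZF1 (BBX22), STH (BBX25) and STO (BBX24) had -1.17 ± 0.15, -1.13 ± 0.10 and -1.09 ± 0.19. STH had 68.6, 64.4 and 60.9 CPM in uvr8-6, against 142, 141 and 142 CPM in wild type, with no overlap. BBX31 had -1.73 ± 0.33.

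Clock genes differed in both directions. Of 19 members 12 were lower and 2 higher (73.7% called, against 23.5% of all tested genes). Lower were the morning factor CCA1 (-0.97 ± 0.13) with its relative RVE1 (-1.23 ± 0.11), ELF4, a subunit of the evening complex (-1.38 ± 0.17), and ZTL, a blue light receptor that targets clock proteins (-0.90 ± 0.08). RVE1 had 94.3, 90.1 and 82.4 CPM in uvr8-6, against 208, 194 and 224 CPM in wild type. The other evening complex gene PCL1 (LUX) was higher in uvr8-6, with 41.5, 30.3 and 37.0 CPM in uvr8-6, against 19.1, 17.4 and 16.5 CPM in wild type (1.04 ± 0.11, adjusted p = 1.46e-05), as was its relative BOA (0.78 ± 0.13). ELF3, the remaining subunit, had 0.04 ± 0.11 and was not called. The 3 genes of the evening complex therefore had a lower, a higher and an uncalled member. The interaction test called 4 of the 19, against 6.6% of all tested genes.

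Genes of elongation growth were higher in uvr8-6 in part. In the auxin list 9 of 23 were higher and 1 lower, and in the cell wall list 9 of 22 were higher and 1 lower, against 9.18% higher and 14.4% lower over all genes. WAG2 (AT3G14370), a protein kinase that directs auxin carriers, had 26.4, 22.0 and 25.2 CPM in uvr8-6, against 3.71, 1.57 and 2.05 CPM in wild type, a log2 fold change of 3.33 ± 0.25 (adjusted p = 4.87e-07). In white light WAG2 had 24.6, 20.2 and 25.9 CPM in uvr8-6 and 20.2, 15.4 and 25.3 CPM in wild type, so under UV-B wild type was the group that stood apart. WAG1 had 1.83 ± 0.18. Auxin-conjugating enzymes of the GH3 family were higher, GH3.3 with 22.6, 14.7 and 23.4 CPM in uvr8-6, against 1.64, 2.09 and 3.31 CPM in wild type (3.11 ± 0.40), GH3.5 (WES1) with 1.23 ± 0.21 and GH3.2 (BRU6) with 1.24 ± 0.25.

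Among Aux/IAA repressor genes, IAA19 had 29.8, 44.5 and 31.8 CPM in uvr8-6, against 5.01, 11.6 and 8.02 CPM in wild type (2.11 ± 0.42, adjusted p = 0.00235) and IAA6 had 6.02, 9.63 and 5.56 CPM in uvr8-6, against 0.302, 2.90 and 1.22 CPM in wild type (2.25 ± 0.63), while IAA14 was lower (-1.20 ± 0.24). IAA19 varied within groups, with uvr8-6 replicate 2 above the other replicates, and still no wild-type library reached uvr8-6. IAA6 was not called without wild-type replicate 1 or 3 or uvr8-6 replicate 2 (adjusted p 0.0557 to 0.0687). The auxin carrier gene PIN7 had 0.51 ± 0.17, a call that ended without any 1 library but uvr8-6 replicate 1 (adjusted p 0.0683 to 0.0938). Cell wall loosening enzymes with higher levels in uvr8-6 were XTH19 (1.71 ± 0.22), XTH8 (1.30 ± 0.14), XTH17 (1.49 ± 0.33) and XTH15 (1.34 ± 0.34), xyloglucan endotransglucosylases, and EXPB1 (1.72 ± 0.18) and EXP3 (0.82 ± 0.15), expansins. XTH8 had 72.8, 74.8 and 74.7 CPM in uvr8-6, against 27.7, 36.8 and 25.6 CPM in wild type. EXPA1 was lower (-0.58 ± 0.13). In the list of SAUR genes 2 of 14 were lower and 1 higher, with 1 lower without any 1 library but wild-type replicate 1 and 2 higher without wild-type replicate 2. With all libraries 21.4% of the SAUR genes were called, near the 23.5% of all tested genes. Without uvr8-6 replicate 2 the auxin and cell wall lists had 2 lower each.

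PIF factors and shade genes, which are known to drive auxin synthesis and elongation, gave a mixed picture with 3 of 23 lower and 5 higher (8 higher with upper quartile scaling, and 3 to 4 with any 1 library left out, with 3 without wild-type replicate 1 or 2 or uvr8-6 replicate 1 or 2). Of the 23, 34.8% were called, against 23.5% of all tested genes, of which 14.4% were lower and 9.18% higher. The lower calls of this list were near the share of all genes. UNE10 (PIF8) had 53.9, 43.5 and 54.3 CPM in uvr8-6, against 161, 154 and 136 CPM in wild type (-1.57 ± 0.11, adjusted p = 2.17e-07), PIF7 had 13.2, 14.7 and 12.5 CPM in uvr8-6, against 36.4, 42.9 and 39.4 CPM in wild type (-1.56 ± 0.18), and PIF5 had -0.66 ± 0.19 (adjusted p of 0.0794 without wild-type replicate 3 and 0.0765 without uvr8-6 replicate 3). PIF3 was higher (0.96 ± 0.17). PIF4 had 55.0, 89.7 and 58.2 CPM in uvr8-6, against 38.3, 91.9 and 76.5 CPM in wild type, which overlapped and was not called (adjusted p = 0.973). Of targets, IAA29 had 1.52 ± 0.52 (not called without any 1 of the 6 libraries, adjusted p 0.0567 to 0.156), PRE5 2.47 ± 0.62 and the sulfotransferase gene ST2A 2.82 ± 0.66, with 32.0, 59.8 and 36.5 CPM in uvr8-6, against 6.87, 4.87 and 6.45 CPM in wild type. Among 18 gibberellin and brassinosteroid genes 3 were lower and 3 higher (1 and 5 with upper quartile scaling, and 1 lower without wild-type replicate 1 or uvr8-6 replicate 1 or 3). These calls were 33.3% of the list, against 23.5% of all tested genes, and the lower ones were again near the share of all genes. GA20OX1, of gibberellin synthesis, was higher (2.24 ± 0.41), GA2OX8, of gibberellin inactivation, was lower (-2.26 ± 0.41), and BR6OX1, of brassinosteroid synthesis, was higher (1.14 ± 0.19).

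Some growth genes moved with the FRO5 level inside the groups, and for IAA19 and IAA6 the libraries of high FRO5 were the lower ones within each genotype. Leaving out the 3 UV-B libraries with high FRO5, an alternative chosen after seeing the data that leaves 1 uvr8-6 and 2 wild-type libraries, gave 2530 calls in place of 4903. In it the counts of called members were 10 lower for the core, 9 lower for the acclimation markers and 14 lower for flavonol synthesis, 3 lower for B-box factors, 6 lower for the clock, 6 higher for auxin and 5 higher for the cell wall. The median log2 fold changes there were -1.04 for B-box factors, -0.64 for the clock, 0.58 for auxin and 0.55 for the cell wall, against -1.11, -0.70, 0.27 and 0.44 with all libraries. The lone uvr8-6 library is assumed there to vary like the other groups, and fewer libraries alone lower a count. The part of the FRO5 difference in these results was not tested.

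**Figure D5:**
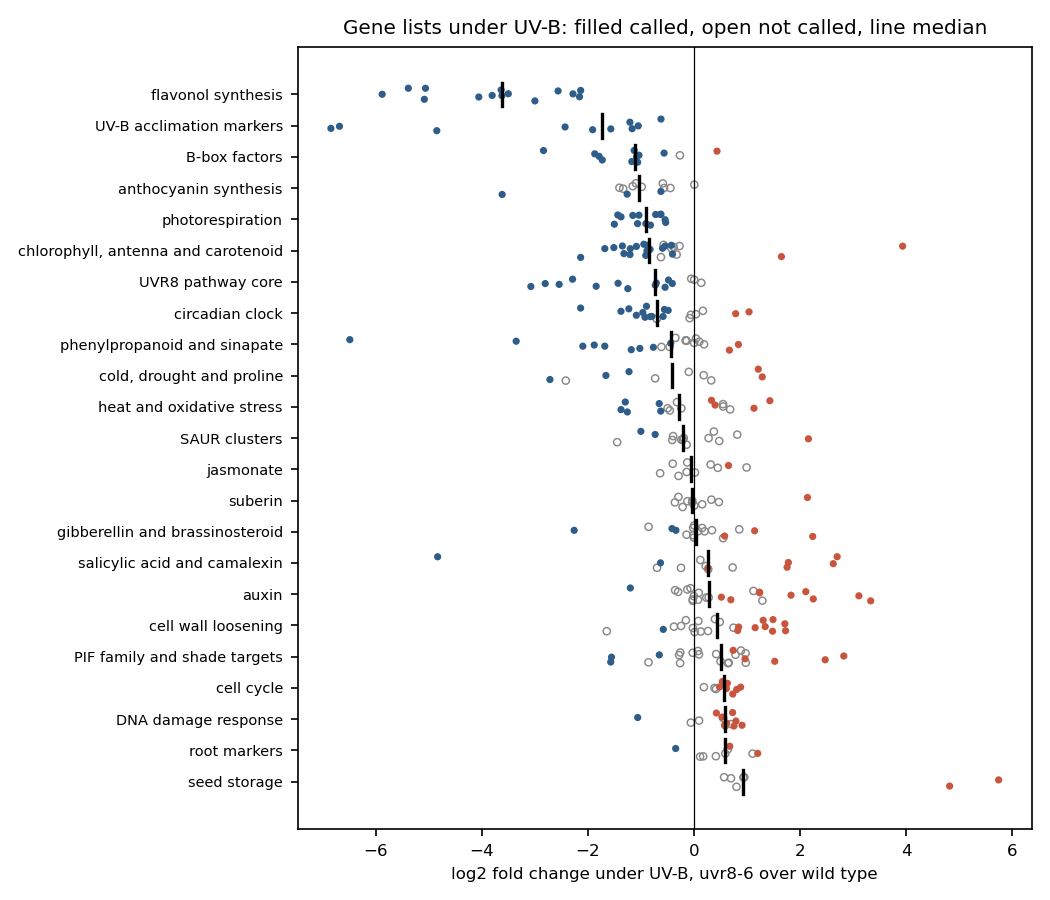
Each point is 1 tested member of a gene list, with the log2 fold change of uvr8-6 over wild type under UV-B on the x axis and lists ordered by their median (black line) down the y axis. Filled points are called, blue lower and red higher, and open points are not called. Flavonol synthesis has a median of -3.63 and the acclimation markers -1.74, while seed storage lies at the other end with 2 called members near 5 and 6.

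Genes of greening were lower in uvr8-6, with 18 of 26 members lower and 2 higher, a median of -0.85 (76.9% called, against 23.5% of all tested genes). Without wild-type replicate 3, or without uvr8-6 replicate 2, 13 were called lower. AT1G76570 (LHCB7), an antenna protein gene, had 17.8, 16.1 and 16.7 CPM in uvr8-6, against 78.1, 63.1 and 81.2 CPM in wild type (-2.14 ± 0.18), and CGA1, a GATA factor of chloroplast development, had -1.68 ± 0.22. OHP2 and OHP, single-helix proteins of photosystem assembly, had -1.35 ± 0.12 and -1.20 ± 0.12, BETA-OHASE 1, which makes xanthophylls, had -1.51 ± 0.16, and LYC, lycopene cyclase, had -0.87 ± 0.10. NPQ4 (PSBS), the sensor protein of energy quenching, had 766, 528 and 692 CPM in uvr8-6, against 1521, 1308 and 1757 CPM in wild type (-1.21 ± 0.17), and the violaxanthin de-epoxidase gene NPQ1 had -1.09 ± 0.15.

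Protochlorophyllide oxidoreductases, which make chlorophyll in light, went the other way. PORA (AT5G54190) had 7.07, 12 and 6.81 CPM in uvr8-6, against 0.173, 0.764 and 0.741 CPM in wild type, a log2 fold change of 3.93 ± 0.42 (adjusted p = 1.39e-05), and PORB had 400.3, 309 and 394 CPM in uvr8-6, against 109.7, 107 and 136 CPM in wild type (1.65 ± 0.18, adjusted p = 1.7e-05). In white light PORA had 22.5, 11.0 and 16.8 CPM in uvr8-6 and 15.1, 9.32 and 15.4 CPM in wild type. For PORA and PORB the wild-type UV-B libraries thus lay under all other libraries of both genotypes. PORC, the third family member, had -0.38 ± 0.15 and was not called.

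Among the 8 most abundant genes with at least a 2-fold difference, 7 were lower in uvr8-6. Of all genes with such a difference, 791 were lower and 539 higher. The rank is by mean CPM over the 6 UV-B libraries, not divided by gene length. RCA (AT2G39730), rubisco activase, had 6593, 3986 and 5660.3 CPM in uvr8-6, against 12260.0, 9248 and 13923 CPM in wild type (-1.13 ± 0.22), and FBA2, a plastid aldolase of the Calvin cycle, had -1.08 ± 0.19. DIN10, of the raffinose synthase family, had -1.03 ± 0.14. The exception among the 8 was CAT3 (AT1G20620), a catalase, with 3554, 3486 and 3367 CPM in uvr8-6, against 1702, 2001 and 1475 CPM in wild type (1.01 ± 0.17, adjusted p = 0.000798). CAT2, the photorespiratory catalase, was lower with 772, 632 and 658 CPM in uvr8-6, against 1793, 1517 and 2046 CPM in wild type (-1.38 ± 0.13, adjusted p = 5.68e-06). The 2 catalase genes thus differed in opposite directions.

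GLDP1, AGT and SHM1 among these abundant genes encode photorespiratory enzymes, which recycle the product of the rubisco oxygenase reaction, so a list of that pathway was drawn up after these values were seen and is given as a description. All 13 tested genes were called lower, with a median of -0.91, against 14.4% lower over all tested genes. With wild-type replicate 3 left out 8 of them were, without uvr8-6 replicate 2 9 were, and with only the groups compared 10 were. GLDP1 and GLDP2, glycine decarboxylase P proteins, had -1.50 ± 0.24 and -1.44 ± 0.17, AGT, an aminotransferase, had -1.15 ± 0.20, HPR, hydroxypyruvate reductase, had -1.07 ± 0.17, and SHM1, serine hydroxymethyltransferase, had -1.04 ± 0.17. GLDP1 had 1267, 1151 and 1079.6 CPM in uvr8-6, against 2908, 2599.5 and 4405 CPM in wild type, with wild-type replicate 3 the highest. In white light the median of the 13 was -0.14 and none was called. The interaction test called 7 of them, against 6.6% of all tested genes.

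DNA damage genes were higher in uvr8-6, with 8 of 14 called higher and 1 lower (0 lower without wild-type replicate 2 or 3 or uvr8-6 replicate 1 or 3), 64.3% against 23.5% of all tested genes. Their median log2 fold change was 0.58 under UV-B and 0.18 in white light. The interaction test called 1 of the 14, so for most of them a difference particular to UV-B was not shown. BRCA1, of homologous recombination, had 14.3, 13.2 and 15.4 CPM in uvr8-6, against 7.13, 7.92 and 7.93 CPM in wild type (0.90 ± 0.21, adjusted p = 0.0061), BARD1, its partner, had 0.79 ± 0.17, GMI1 had 0.73 ± 0.16, and SOG1, the transcription factor that heads the response, had 0.42 ± 0.09. The differences were under 2-fold for all 8. BRCA1 in white light had 4.12, 4.83 and 5.31 CPM in uvr8-6 and 3.76, 3.92 and 4.43 CPM in wild type, so every UV-B library stood above every white-light library. Across the genome, 233 genes (1.12%) were called between UV-B and white light within uvr8-6. With single libraries left out 5 to 8 were called higher, with 5 without wild-type replicate 2 or uvr8-6 replicate 1 or 3, and without the 3 libraries of high FRO5 0 were. Cell cycle genes had 7 of 10 called higher by less than 2-fold, among them PCNA1 (0.88 ± 0.27) and MCM2 (0.80 ± 0.25), replication proteins, but 1 to 3 without wild-type replicate 1, 2 or 3 or uvr8-6 replicate 1 or 3. Their median log2 fold change was 0.57 under UV-B, and 0.24 without the 3 libraries of high FRO5. In white light it was 0.20, and the interaction test called 0 of the 10.

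Defence and stress genes were called in both directions, 53.8% of the 13 salicylic acid and camalexin genes tested, 56.2% of 16 heat and oxidative stress genes, 50% of 10 cold, drought and proline genes and 10% of 10 jasmonate genes, against 23.5% of all tested genes. PR5, a pathogenesis-related protein gene, had 0.168, 0.0351 and 0.0403 CPM in uvr8-6, against 1.17, 2.94 and 3.01 CPM in wild type (-4.83 ± 0.74, adjusted p = 0.000318), and PAD4, a regulator of salicylic acid defence, had -0.63 ± 0.13. FMO1 and ALD1, of N-hydroxypipecolic acid synthesis, were higher with 2.70 ± 0.55 and 2.62 ± 0.58, at levels of at most 1.85 CPM and 1.30 CPM in uvr8-6. In the salicylic acid list this made 2 lower and 5 higher of 13, but 2 to 4 higher with any 1 library left out, with 2 without wild-type replicate 2 or 3. Of 10 jasmonate genes 1 was called, OPR3 (0.65 ± 0.11), a jasmonate synthesis enzyme, and 2 were without uvr8-6 replicate 2. In the heat and oxidative stress list 5 of 16 were lower and 4 higher (2 to 6 lower and 2 to 4 higher with 1 library left out, with 2 lower without wild-type replicate 2 or uvr8-6 replicate 1 or 3, and 2 higher without any 1 library but wild-type replicate 2), with GSTU25 at 1.43 ± 0.26 and GSTU24 at 1.13 ± 0.23. The cold, drought and proline list had 1 member higher without wild-type replicate 1 or 3 or uvr8-6 replicate 1 or 3. With all libraries 3 of 10 were lower, among them KIN1, a cold-induced gene, with 2.61, 3.87 and 2.70 CPM in uvr8-6, against 18.1, 25.9 and 16.6 CPM in wild type (-2.72 ± 0.58), and ERD5, proline dehydrogenase, with -1.66 ± 0.14, and 2 higher, among them NCED3, of abscisic acid synthesis (1.21 ± 0.26).

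Genes with the largest higher levels in uvr8-6 included transporters and cell wall proteins. UMAMIT36, an amino acid transporter family gene, had 9.13, 3.58 and 11.0 CPM in uvr8-6, against 0.302, 0.483 and 0.654 CPM in wild type (4.02 ± 0.88), and AGP30, an arabinogalactan protein gene of roots, had 8.88, 1.69 and 8.30 CPM in uvr8-6, against 0.821, 0.241 and 0.174 CPM in wild type (3.91 ± 0.80). In both, uvr8-6 replicate 2, the uvr8-6 library of low FRO5, was the lowest of its group. In wild type, replicate 1, of high FRO5, was the highest for AGP30 and the lowest for UMAMIT36. Without the 3 libraries of high FRO5 the log2 fold changes were 2.65 for UMAMIT36 and 2.98 for AGP30. ADS4, of the fatty acid desaturase family, had 7.07, 9.28 and 9.03 CPM in uvr8-6, against 1.04, 0.965 and 0.872 CPM in wild type (3.14 ± 0.22, adjusted p = 2.7e-07), and AT4G00910, of the malate transporter family, had 3.19 ± 0.31. AT5G19890 and AT1G49570, annotated as peroxidases, had 3.18 ± 0.45 and 2.87 ± 0.55, and AT1G49570 had 82.1, 85.4 and 92.7 CPM in uvr8-6, against 16.7, 7.92 and 11.1 CPM in wild type. Limma-voom did not call UMAMIT36 and AGP30.

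Whole families, grouped after the fact by their RefSeq product names, split in different ways. UDP-glycosyltransferases had 25 of 113 lower and 19 higher (23 and 24 with upper quartile scaling), and at least 2-fold 18 lower and 6 higher. Over all tested genes 14.4% were lower and 9.18% higher, and at least 2-fold 3.8% lower and 2.59% higher. Cytochromes P450 had 26 of 170 lower, near the share of all genes, and 40 higher (24 and 51 with upper quartile scaling). Class III peroxidases had 2 of 56 lower and 14 higher (2 and 17), and arabinogalactan proteins 4 of 34 lower and 9 higher (3 and 14). Inhibitors of pectin methylesterase and invertase had 3 of 43 lower and 12 higher (2 and 14). The share called was 28.6% for the peroxidases, 34.9% for the inhibitors and 38.2% for arabinogalactan proteins. It was 38.8% for cytochromes P450 and 38.9% for UDP-glycosyltransferases, against 23.5% of all tested genes. Of 276 genes matched by product name as cytosolic ribosomal proteins, 6.88% were called, against 23.5% of all genes. With TMM 13 were lower and 6 higher, and with upper quartile scaling 6 were lower and 19 higher. A product name does not show that each counted gene belongs to its family.

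Markers of root and seed were called at 33.3% and 28.6%, against 23.5% of all tested genes, and 1 library stood apart in the seed markers. Of 9 tested root markers 1 was lower, SCR (-0.35 ± 0.09, not called with upper quartile scaling, adjusted p = 0.0557, nor without wild-type replicate 1 or 3 or uvr8-6 replicate 3, adjusted p 0.0532 to 0.0687), and 2 higher, among them the root hair factor RHD6 (1.20 ± 0.26), and suberin genes had 1 of 11 higher. With 1 library left out the higher calls were 1 to 4 for root markers (4 without wild-type replicate 1, and 1 without any other) and 0 for suberin genes without any wild-type library or uvr8-6 replicate 2. Seed storage genes had 2 of 7 higher, CRU3 with 0.421, 17.9 and 0.363 CPM in uvr8-6, against 0.130, 0.0804 and 0.131 CPM in wild type and CRA1 with 1.26, 31.1 and 1.29 CPM in uvr8-6, against 0.648, 0.201 and 0.349 CPM in wild type. Both were high in uvr8-6 replicate 2 alone, limma-voom called neither, and 0 seed storage genes were called without any 1 wild-type library. Without that library they were not called (adjusted p = 0.474 and 0.365), and CRU2, SESA1 and SESA4, too low to test, had 89, 59 and 79 reads in the uvr8-6 libraries, against 0, 0 and 2 in wild type. The same library lay apart on the second principal component.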

How the data were processed

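RNA-seq counts were analysed from 15 libraries in 5 groups of 3. Per the labels, each sample pooled 30 seedlings, 400 ng of RNA entered stranded mRNA libraries, and 100 bp single-end reads were made. The authors deposited raw read counts per gene, 1 column a library. Tools listed, without roles, in the submitters' processing notes are edgeR 3.22.3, HTSeq 0.9.1, FastQC 0.11.5 and STAR 2.5.3a, with TAIR10 as the build. Whether reads were counted by strand is not given in the sources used here. The authors' scaled table was not used.

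Genes were filtered with filterByExpr (20833 of 33602 kept), scaled by TMM (factors 0.863 to 1.108) and fitted over all 15 libraries with edgeR 4.0.16 in R 4.3.3, by the two-sided quasi-likelihood test with 10 residual degrees of freedom and Benjamini-Hochberg adjustment over all tested genes. Limma 3.58.1 and DESeq2 1.42.0 were alternatives, beside upper quartile and RLE scaling, no filter, fewer groups, a replicate block and leaving out libraries. The script was tested on simulated data. Replicates came from separate plates per the labels. No pair of replicates within either UV-B group agreed within sampling noise, and other pairs were not checked. Deviations of same-numbered UV-B libraries correlated at 0.26, 0.38 and -0.02. Differently numbered libraries were not compared, so this does not show whether replicate numbers pair the samples. Symbols came from RefSeq (32835 matched) and promoter windows from TAIR10.1 by locus tag, since the count table gives no coordinates. Reads can be split among near-identical genes or overlapping ones, and a floor of 3 reads covers counting error only.

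The genes and the 22 lists (347 genes) were chosen with earlier results of these data known. Named genes were the 12 with the largest fold change in each direction that reached 5 CPM in the higher group without overlap, the 8 most abundant with at least a 2-fold difference, those called in both lights, up to 6 called members per list by lowest p, and all core genes. FRO5, the photorespiration list, the product families and these genes were added after their values were seen: PHR1, CRY3, CHIL, 4CL3, UGT78D1, MYB111, MYB11, DFR, LDOX, PAL4, 4CL2, 4CL1, SNG1, UGT84A3, UGT84A4, ELF3, IAA19, IAA6, PIN7, XTH15, EXPA1, PIF4, IAA29, CGA1, LYC, NPQ4, NPQ1, BBX21 and PORC. Some genes are not reported here.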

Additional observations from a re-analysis of the deposited data

Results flagged for a closer look

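For 95 of the 147 genes named above, the difference between uvr8-6 and wild type was not the same under UV-B and in white light, by the interaction test of the same fit (edgeR, adjusted p under 0.05 over all 20833 genes, 6.6% of which passed). Values below are the log2 fold change of uvr8-6 over wild type under UV-B minus that in white light. The members of these lists were chosen with earlier results known, so the number of such genes says nothing of how common they are.

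Among core genes of the pathway it was -3.03 for MYB13, -2.70 for RUP2, -2.18 for RUP1, -1.92 for HY5, -1.29 for HYH, -1.13 for SPA4, -0.65 for SPA3 and -0.64 for COP1. In the same group it was -0.49 for DET1 and -0.45 for SPA1. For acclimation genes it was -7.73 for ELIP1, -5.92 for GPX7, -5.14 for ELIP2, -2.14 for SIGE, -1.81 for CRY3, -1.58 for PHR1 and -0.94 for UVR3. For flavonol genes it was -6.26 for MYB11, -5.37 for CHS, -5.27 for FLS1, -5.04 for F3H, -4.41 for TT7, -3.72 for MYB12, -3.67 for TT5 and -3.62 for CHIL. In the same group it was -3.57 for 4CL3, -3.00 for AT1G06000, -2.70 for MYB111, -2.39 for UGT78D2, -2.23 for RHM1 and -2.16 for UGT78D1. In the anthocyanin branch it was -3.44 for GSTF12 and -0.49 for TTG1. For phenylpropanoid and sinapate genes it was -7.14 for UGT84A1, -3.43 for UGT84A2, -1.95 for FAH1, -1.86 for PAL1, -1.85 for PAL2, -1.29 for C4H, -0.85 for SNG1 and 0.62 for PAL4. For genes in none of the lists it was -8.74 for AT2G22590, -6.83 for AT5G62210, -5.46 for AT2G23910, -0.91 for DIN10, 0.97 for CAT3, 3.04 for AT5G19890, 3.24 for ADS4 and 3.46 for AT4G00910. In the same group it was 4.12 for AGP30. For B-box factors it was -2.45 for BBX32, -1.71 for BBX31, -1.27 for LZF1, -0.97 for STO and -0.92 for STH. For clock genes it was -1.59 for ELF4, -1.04 for RVE1, -0.75 for ZTL and 0.71 for PCL1.

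For the auxin list it was 1.19 for WES1, 1.55 for BRU6, 1.76 for WAG1, 3.12 for WAG2 and 3.18 for GH3.3. For the cell wall loosening list it was -0.73 for EXPA1, 0.79 for EXP3, 1.17 for XTH8, 1.47 for XTH19, 1.56 for EXPB1 and 1.78 for XTH15. For the PIF family and shade targets list it was -1.53 for PIF7, -1.49 for UNE10 and 0.95 for PIF3. For the gibberellin and brassinosteroid list it was -2.89 for GA2OX8 and 1.07 for BR6OX1. For the chlorophyll, antenna and carotenoid list it was -1.99 for AT1G76570, -1.46 for CGA1, -1.41 for BETA-OHASE 1, -1.15 for NPQ4, -1.14 for OHP2, -1.04 for OHP, -1.04 for NPQ1 and -0.78 for LYC. In the same group it was 1.45 for PORB and 3.60 for PORA. For the heat and oxidative stress list it was -1.14 for CAT2. For the photorespiration list it was -1.49 for GLDP1, -1.28 for GLDP2, -0.90 for SHM1 and -0.85 for HPR. For the DNA damage response list it was 0.45 for SOG1. For the salicylic acid and camalexin list it was -0.71 for PAD4 and 2.81 for FMO1. For the cold, drought and proline list it was -3.23 for KIN1 and -1.49 for ERD5.

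The value of MYB11 is the fitted one, on 2 reads in the UV-B libraries of uvr8-6, and is no measure of the size of its difference. Other large values rest on few white-light reads, such as those of AT2G22590 (SE 1.57) and GPX7 (SE 1.11). In white light AT2G22590 had means of 0.050 CPM in wild type and 0.063 CPM in uvr8-6, and GPX7 0.158 and 0.086 CPM. The sizes of these are imprecise. The direction of each value is that of the genotype difference under UV-B. None of these genes was called in white light, and the test says nothing of the UV-B response of either genotype on its own.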

How the results depend on the processing

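The count of 4903 called genes was 5431 with upper quartile scaling, 4912 with RLE scaling, 4821 by limma-voom, 5384 by DESeq2, 4670 with no filter and 4936 with only the groups compared. Calls higher in uvr8-6 numbered 3142 with upper quartile scaling, against 1912 with TMM. The share of calls lower in uvr8-6 was 42.1% with upper quartile scaling, 62.8% by limma-voom and 55.4% with only the groups compared, against 61%. DESeq2 called 6 genes in white light, against 3.

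With the replicate number as a block, 5370 genes were called (3268 lower and 2102 higher), the interaction test called 1759 and white light 3. Deviations of same-numbered UV-B libraries correlated at 0.26, 0.38 and -0.02, and whether equal numbers share a source was not tested. FRO5 was high in replicate 2 of both white-light groups (58.4 CPM in wild type and 78.7 CPM in uvr8-6). Under UV-B it was high in replicate 1 of both genotypes and in uvr8-6 replicate 3. The block is given only here.

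Leaving out 1 library at a time gave 3349 to 4103 calls, 2197 to 2607 lower, 1152 to 1746 higher, 1082 to 1383 at least 2-fold, 56.3 to 66.7% lower, 877 to 1247 in the interaction test and 3 in white light. The fewest higher calls (1152) came without wild-type UV-B replicate 3, and the fewest interaction calls (877) without uvr8-6 white-light replicate 3. Without the 3 libraries of high FRO5, chosen after seeing the data, 2530 genes were called, 1725 lower and 805 higher, and 68.2% were lower. Fewer libraries were fitted in these, and for the other changes the cause was not tested.

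Of 136 called genes named above, 122 kept their call under every scaling, tool, filter, set of samples, block and single-library removal tried, 105 without the 3 libraries of high FRO5, and 0 changed sign. Many of these genes were named for a large fold or low p in the same fit. Their share therefore does not measure how stable the calls are as a whole. Of all genes called under UV-B, 66.8% (without wild-type replicate 3) to 78.7% were called again with 1 UV-B library left out. With the other scalings, tools, filter, block and set of samples, 85.7% (upper quartile scaling) to 99.3% (DESeq2) were called again. PORC, not called, was called with the replicate block and without wild-type replicate 1. Depth limits the genes with few reads, such as MRD1, MYB11 and PR5.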
